A study of Mus musculus with 30 samples.

Results

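*Susd4*, *Slc15a5* and *Cldn14* are the 3 genes described here, out of the 55450 genes in the deposited count table. They were picked by symbol because earlier results of these data showed them strongly lower in livers of mice that lack *Cebpa* in hepatocytes, so the knockout against control values below are a description and carry no test. The name under which they were grouped, genes lost with *Cebpa* in every experiment, held for *Susd4* and *Slc15a5*. *Cldn14* went against it in the longest experiment, where knockout livers kept 49.4% of the control level.

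The 30 livers came from male mice, 1 stranded poly(A) library a mouse, in 3 experiments that each set 5 knockout mice against 5 *Cebpa* fl/fl controls. All mice carried loxP-flanked *Cebpa* alleles, were backcrossed to C57BL/6N and were fed HFCFD, a diet high in fat, cholesterol and fructose. In HFCFD2W, constitutive knockouts (*Cebpa* ΔHep, albumin-Cre) and controls ate the diet for 2 weeks. Inducible knockouts (*Cebpa* ΔHep,ERT2, albumin-ERT2-Cre) and controls with the same treatment label made up the other experiments: HFCFD8W+T10D, with 8 weeks of diet with 10 days of tamoxifen, and HFCFD12W+T10W, with 12 weeks of diet followed by 10 weeks of diet with tamoxifen. Albumin drives Cre, and the paper describes the loss as specific to hepatocytes, but *Cebpa* of other liver cells was not measured apart in these whole-liver libraries. Cre line, diet time and tamoxifen all changed with the experiment and cannot be told apart between experiments.

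CEBPA is a basic leucine zipper transcription factor that hepatocytes use to switch on genes of the mature liver, and it binds DNA as a dimer at palindromes made of TTGC half-sites. *Susd4* encodes a membrane protein with sushi domains, the building blocks of complement regulators, and has been described as a complement inhibitor. *Slc15a5* belongs to the SLC15 family of proton-coupled peptide transporters, and its substrate is not established. *Cldn14* encodes a claudin, a tight junction protein known for limiting the passage of cations between epithelial cells in the kidney and inner ear.

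The 3 genes lie on different chromosomes. In GRCm38 with the GENCODE M21 annotation, *Susd4* (ENSMUSG00000038576.15) lies at chr1:182763860-182896591 on the plus strand, *Slc15a5* (ENSMUSG00000044378.12) at chr6:137983586-138079916 on the minus strand, and *Cldn14* (ENSMUSG00000047109.13) at chr16:93919031-94008837 on the minus strand. All 3 are protein-coding, with 5, 6 and 6 annotated transcripts. The RefSeq promoter table (GRCm38.p6, windows of 300 bases around each transcription start) held 2 windows for *Susd4*, 1 for *Slc15a5* and 3 for *Cldn14*. A window of each gene is shown 5′ to 3′ on the gene's strand because it is the DNA next to which a factor such as CEBPA would first be looked for. The *Susd4* window belongs to the start of its longest transcript (chr1:182764646-182764945). For *Slc15a5* it is the listed one (chr6:138079867-138080166), also at the start of the longest transcript. The *Cldn14* window is the one with a motif match (chr16:93929768-93930067). Other annotated starts of *Slc15a5*, from 138036903 to 138073196, had no listed window and were not searched. Which start these livers used was not tested. Capitals mark a match to TTGCNNAA.
Susd4: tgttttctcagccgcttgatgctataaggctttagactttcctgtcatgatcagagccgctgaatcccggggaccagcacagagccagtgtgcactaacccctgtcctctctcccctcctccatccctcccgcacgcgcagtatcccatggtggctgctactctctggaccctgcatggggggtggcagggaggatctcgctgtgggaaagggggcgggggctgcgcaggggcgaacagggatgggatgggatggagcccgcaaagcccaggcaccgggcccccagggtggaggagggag
Slc15a5: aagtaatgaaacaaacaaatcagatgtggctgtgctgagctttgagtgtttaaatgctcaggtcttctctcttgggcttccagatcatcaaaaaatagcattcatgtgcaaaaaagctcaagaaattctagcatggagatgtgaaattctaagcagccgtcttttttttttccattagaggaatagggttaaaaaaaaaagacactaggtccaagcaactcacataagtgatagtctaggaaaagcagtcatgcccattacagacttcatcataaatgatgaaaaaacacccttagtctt
Cldn14: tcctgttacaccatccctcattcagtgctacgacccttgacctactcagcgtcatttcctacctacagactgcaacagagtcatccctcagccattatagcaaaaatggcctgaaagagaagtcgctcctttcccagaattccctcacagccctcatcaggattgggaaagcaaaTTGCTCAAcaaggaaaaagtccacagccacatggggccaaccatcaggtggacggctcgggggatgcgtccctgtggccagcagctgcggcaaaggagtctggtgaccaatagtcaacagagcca

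The letters of 4 motifs were searched on both strands, and TTGCGCAA is itself a form of TTGCNNAA. Of the 6 windows, 1 held a match: TTGCTCAA in the *Cldn14* window, 75 bases before the start at position 93929817. TTGCNNAA occurred in 10.8% of all 32851 windows, so a match in 1 of 6 windows is a description only. The full palindrome TTGCGCAA (0.183% of all windows), the HNF4A letters CAAAGTCCA (0.475%) and TATAAA (13.6%) had no match in these 6 windows. The windows differed widely in base composition. The 2 *Susd4* windows held 81.3% and 63.7% G and C, the *Slc15a5* window 36.7%, and the 3 *Cldn14* windows 48.0% to 55.3%, against a median of 52.7% over all windows.

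The libraries held 7996123 to 10257347 expected counts each. TMM scaling, which adjusts each library for its composition, raised the effective total of HFCFD12W+T10W knockouts by a median factor of 1.31, against 0.98 in their controls. Without it, the median log2 fold change over all genes tested there was 0.38 rather than 0.01, so levels below are in CPM, counts scaled to the same TMM-adjusted library total, and results are also given on plain totals where that changes a statement. Hepatocyte markers were abundant in every library, with a summed level of 73486 to 189081 CPM over 10 genes. Their sum was 89255 to 147818 CPM in HFCFD8W+T10D knockouts against 132940 to 162091 CPM in controls, where 1 of the 10 was called lower, and 73486 to 82148 CPM in HFCFD12W+T10W knockouts against 113818 to 142031 CPM, where 2 were. In the latter the sums in knockouts and controls were 47.3 to 75.3 and 3.91 to 5.96 CPM for 6 cholangiocyte markers, and 1031 to 1256 and 257 to 317 CPM for 7 stellate cell and fibroblast markers, of which 6 and 4 were called higher. Much of the hepatocyte sum was *Alb*. Its mean in controls and knockouts was 96092 and 49641 CPM in HFCFD8W+T10D, and 77545 and 35080 CPM in HFCFD12W+T10W. By adjusted p alone, 3 and 6 of the 10 hepatocyte markers fell there and 0 rose, with median log2 fold changes of −0.36 and −0.65. Not all had lower means, since *Trf* was at 0.67 and 0.24. In liver mRNA as a whole, fewer hepatocytes, less RNA per hepatocyte and lower levels of single markers cannot be told apart.

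*Cebpa* itself checked the labels in each experiment. Its expected counts in knockouts were 29, 38, 42, 42 and 37 in HFCFD2W. After 10 days of tamoxifen they were 162, 305, 199, 109 and 117, and after 10 weeks 238, 258, 267, 205 and 254, whereas no control library held fewer than 718. *Cebpa* mRNA in knockout livers was therefore 2.68%, 11.9% and 18.6% of the control mean in the 3 experiments, in that order. The constitutive knockout had the least left. The genotype effect on *Cebpa* was smaller than in HFCFD2W by 2.17 ± 0.25 (SE) on the log2 scale in HFCFD8W+T10D and by 2.80 ± 0.24 in HFCFD12W+T10W (edgeR quasi-likelihood, adjusted p = 9.3e-07 and 2.7e-08).

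**Figure D1:**
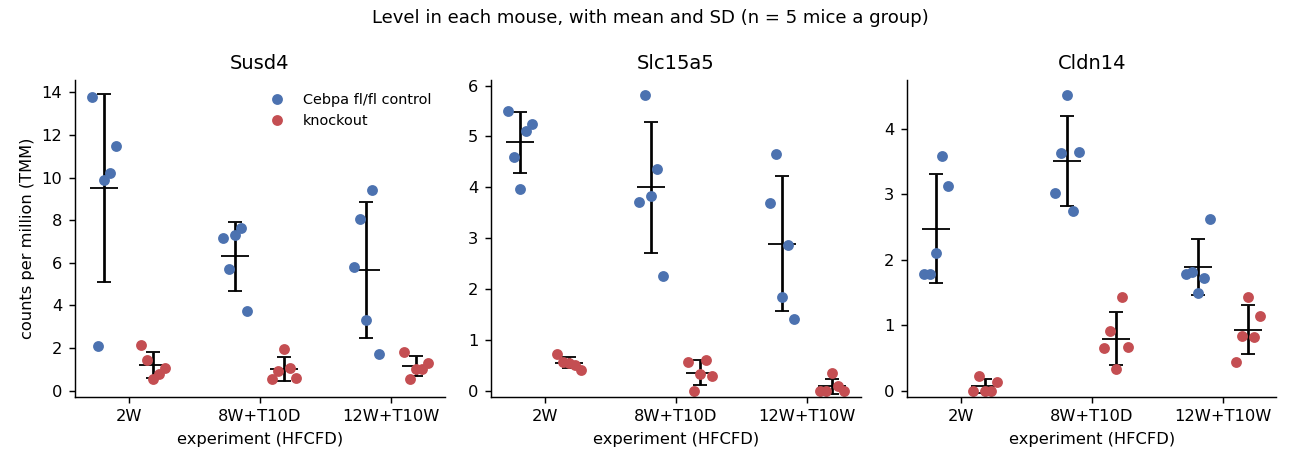
TMM-scaled CPM of *Susd4*, *Slc15a5* and *Cldn14* (vertical axes, linear) in each mouse by experiment (horizontal axes). Blue points are *Cebpa* fl/fl controls, red points are knockouts, and black bars give the mean and SD of 5 mice. *Cldn14* in knockouts rises from a mean of 0.07 CPM in HFCFD2W to 0.93 CPM in HFCFD12W+T10W, while *Slc15a5* does the opposite (0.55 to 0.09 CPM).

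*Susd4* was a gene of low level whose control values varied widely. In HFCFD2W its expected counts were 93, 14, 85, 74 and 81 in controls and 18, 13, 4, 6 and 8 in knockouts. Control replicate 2 stood apart from the other 4 controls and lay below the highest knockout, so the genotypes overlapped. The level was 9.50 ± 4.42 CPM (SD, n = 5) in controls and 1.19 ± 0.63 CPM in knockouts, a log2 fold change of −2.95 ± 0.45 (SE).

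In HFCFD8W+T10D the *Susd4* counts were 62, 44, 63, 75 and 38 in controls and 6, 11, 18, 9 and 6 in knockouts. Every control lay above every knockout. The means were 6.31 ± 1.62 and 1.01 ± 0.57 CPM (SD, n = 5), with a log2 fold change of −2.64 ± 0.32 (SE). In HFCFD12W+T10W the counts were 49, 71, 29, 82 and 17 in controls and 21, 6, 12, 11 and 16 in knockouts. Control replicate 5 fell below knockout replicate 1 in CPM (1.72 against 1.83), so the genotypes overlapped again. The means were 5.67 ± 3.19 and 1.14 ± 0.47 CPM, with a log2 fold change of −2.24 ± 0.44 (SE).

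*Slc15a5* separated the genotypes in every experiment. It was among 114 genes, of the 10950 tested in all 3 experiments, with all knockouts below all controls in CPM each time. In HFCFD2W the expected counts were 37, 31, 34, 37 and 37 in controls and 6, 5, 4, 4 and 3 in knockouts. The controls were tight, with a mean of 4.88 ± 0.61 CPM (SD, n = 5) against 0.55 ± 0.11 CPM in knockouts, a log2 fold change of −3.11 ± 0.21 (SE). In HFCFD8W+T10D the counts were 32, 45, 33, 43 and 23 in controls and 6, 0, 3, 5 and 3 in knockouts. The lowest control, at 23 counts, was well above the highest knockout, at 6. The means were 4.00 ± 1.28 and 0.35 ± 0.24 CPM, with a log2 fold change of −3.49 ± 0.45 (SE).

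In HFCFD12W+T10W the *Slc15a5* counts were 31, 41, 16, 25 and 14 in controls and 0, 0, 4, 1 and 0 in knockouts. Knockout replicate 3 contributed 4 of the 5 counts seen in all 5 knockout livers. For each of the 3 knockout mice at 0, a floor of 3 counts allowed up to 0.243 to 0.277 CPM. The means were 2.89 ± 1.32 CPM (SD, n = 5) in controls and 0.09 ± 0.15 CPM in knockouts, and the fitted log2 fold change of −4.82 ± 0.63 (SE) moved to −6.36 without knockout replicate 3, so its size was poorly set at this depth.

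*Cldn14* differed most between the experiments. In HFCFD2W its expected counts were 12, 12, 18, 26 and 22 in controls and 0, 2, 0, 0 and 1 in knockouts. Only 3 counts remained in the 5 knockout livers. The level was 2.47 ± 0.83 CPM (SD, n = 5) in controls and 0.07 ± 0.10 CPM in knockouts. The fitted log2 fold change was −4.77 ± 0.53 (SE), and −5.67 without knockout replicate 3, which held 2 of those counts.

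In HFCFD8W+T10D the *Cldn14* counts were 26, 28, 39, 27 and 37 in controls and 7, 11, 3, 12 and 7 in knockouts. The genotypes did not overlap. The means were 3.51 ± 0.69 and 0.79 ± 0.41 CPM (SD, n = 5), with a log2 fold change of −2.12 ± 0.30 (SE). In HFCFD12W+T10W the counts were 15, 16, 13, 15 and 26 in controls and 5, 9, 17, 9 and 14 in knockouts. Here knockout replicate 3 had more counts than 4 of the 5 controls.

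The separation of *Cldn14* in HFCFD12W+T10W rested on the scaling. With TMM, the highest knockout was at 1.44 CPM and the lowest control at 1.49 CPM, so the groups just failed to overlap. On plain library totals, 2 knockouts lay above the lowest control (1.88 against 1.45 CPM for the highest and the lowest), and knockouts kept 65.7% of the control level. The means with TMM were 1.89 ± 0.43 and 0.93 ± 0.38 CPM (SD, n = 5). The log2 fold change was −0.97 ± 0.29 (SE), −0.60 on plain totals and −1.18 without knockout replicate 3, on both sides of the 2-fold limit.

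A gene was called lower when edgeR's adjusted p was under 0.05 and the fold change exceeded 2. By that rule all 3 genes were called in HFCFD2W, where 1.38% of genes tested were called lower, and in HFCFD8W+T10D, where 2.01% were. In HFCFD12W+T10W, *Susd4* and *Slc15a5* were called, against 3.47% of genes tested, and *Cldn14* was not. The background for complete separation, with all knockouts below all controls in CPM, was 6.13%, 5.5% and 19.5% of genes tested in the 3 experiments. These shares are printed for scale, since the same contrasts chose the genes. Each of the 3 genes passed the low-count filter through its controls.

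Among the 10950 genes tested in all 3 experiments, 42 were called lower in all 3, and ranking them by their smallest decrease placed *Slc15a5* at rank 2 and *Susd4* at rank 6. The major urinary protein gene *Mup19* stood above *Slc15a5*, with a smallest log2 decrease of −5.86 against −3.11, and *Tiam2*, a Rac exchange factor, stood below it at −3.01. *Cebpa* itself (−2.38) stood just above *Susd4* (−2.24), and *Hsd11b1*, which regenerates active glucocorticoid, just below it (−2.06). *Cldn14* was not in this list, and in HFCFD12W+T10W its fold change was only the 470th lowest of 12463 genes.

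**Figure D2:**
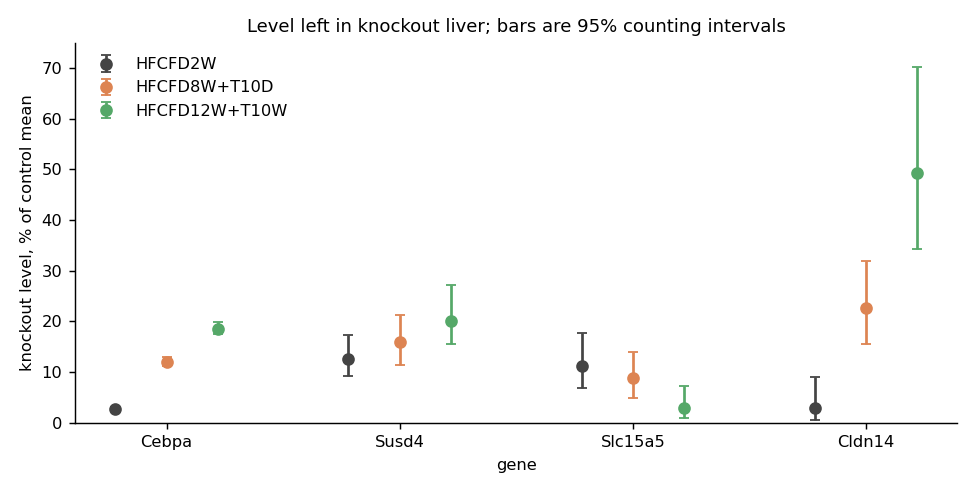
Knockout level as a percentage of the control mean (vertical axis, linear) for *Cebpa*, *Susd4*, *Slc15a5* and *Cldn14* (horizontal axis) in 3 experiments (colours), where bars are 95% exact intervals that cover counting error only. *Cebpa*, *Susd4* and *Cldn14* have the most left in HFCFD12W+T10W (18.6%, 20.1% and 49.4%), whereas *Slc15a5* has the least there (2.97%).

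Set against residual *Cebpa*, the 3 genes did not share an order. Residual *Cebpa* was lowest in HFCFD2W and highest in HFCFD12W+T10W. *Susd4* followed the same order, with 12.6%, 16.03% and 20.1% of the control level left, but its 95% exact (Clopper-Pearson) counting intervals overlapped (9.30% to 17.3%, 11.3% to 21.2% and 15.5% to 27.2%). *Cldn14* followed it over a much wider range, with 2.90% (0.613% to 9.13%), 22.7% (15.5% to 32.0%) and 49.4% (34.4% to 70.1%) left. *Slc15a5* ran in the opposite order, with 11.2% (6.93% to 17.7%), 8.83% (4.85% to 14.03%) and 2.97% (0.97% to 7.31%) left. The *Slc15a5* intervals overlapped as well, and its last value rested on 5 knockout counts. All the intervals given here cover counting error and not the spread between mice, and with 3 experiments the orders are a description.

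Within a knockout group, the mouse with the most *Cebpa* was not the one with the most of the other genes. In HFCFD8W+T10D, knockout replicate 2 had the most *Cebpa* (25.1 CPM) but no count of *Slc15a5*, and 11 counts each of *Cldn14* and *Susd4* (0.90 CPM). Knockout replicate 4 of the same group had 12.9 CPM of *Cebpa* and the highest *Cldn14* (1.42 CPM) and *Slc15a5* (0.59 CPM). In HFCFD2W, where *Cebpa* ran only from 3.43 to 5.68 CPM, the knockout with the least *Cebpa* had the most *Susd4* (2.13 CPM) and the one with the most *Cebpa* had the least (0.54 CPM). Groups of 5 mice were too few for a correlation within a group.

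**Figure D3:**
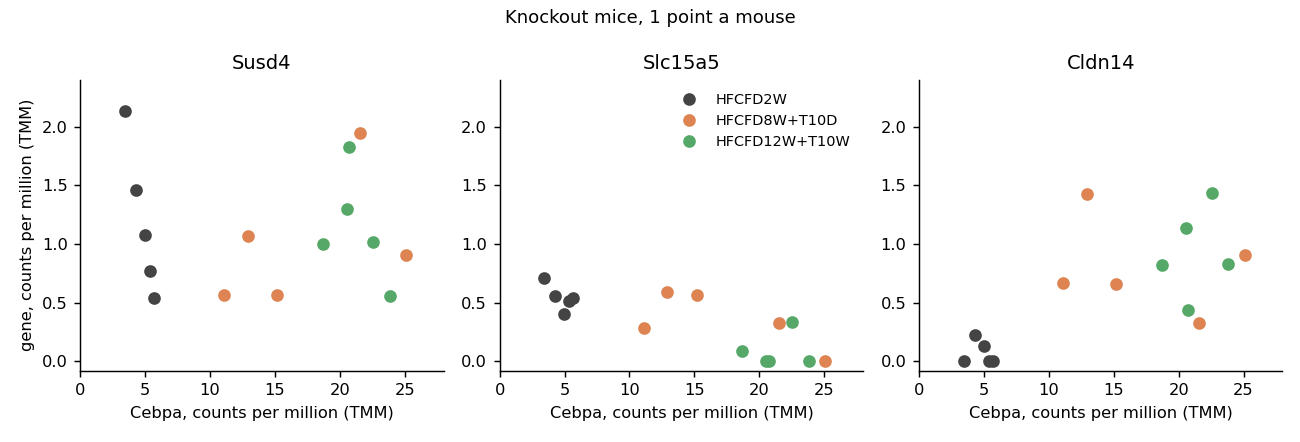
Level of each gene (vertical axes, CPM) against residual *Cebpa* (horizontal axes, CPM) in the 15 knockout mice, 1 point a mouse, coloured by experiment. HFCFD2W mice sit at 3.43 to 5.68 CPM of *Cebpa* with *Cldn14* at or near 0, and the HFCFD12W+T10W mice sit at 18.7 to 23.8 CPM of *Cebpa* with *Slc15a5* at or near 0.

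Whether the genotype effect differed between experiments was not what chose the genes, but it is computed from the same knockout and control values. The difference was tested as an interaction in 1 edgeR fit of all 30 libraries over 12964 genes. The *Cldn14* effect was smaller than in HFCFD2W by 2.68 ± 0.69 (SE) on the log2 scale in HFCFD8W+T10D (adjusted p = 0.0107) and by 3.81 ± 0.66 in HFCFD12W+T10W (edgeR, adjusted p = 0.00010). Between HFCFD12W+T10W and HFCFD8W+T10D it differed by 1.13 ± 0.46, which did not pass (adjusted p = 0.117). The shares of all genes that passed these 3 tests were 11.2%, 30.7% and 10.5%. With the replicate number as a block, the first of them no longer passed (adjusted p = 0.0556). Only 3 *Cldn14* counts in all stood behind the HFCFD2W knockouts. Leaving out any of the 30 libraries kept both calls.

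*Slc15a5* and *Susd4* showed no interaction that passed. For *Slc15a5* the difference between HFCFD12W+T10W and HFCFD2W was −1.72 (95% interval −3.32 to −0.13, edgeR adjusted p = 0.0936), and without HFCFD12W+T10W knockout replicate 3, which held 4 of the group's 5 counts, it was −3.20 (adjusted p = 0.0120). The other 2 differences were −0.39 (−1.70 to 0.93) and −1.34 (−2.98 to 0.31). For *Susd4* the 3 differences lay between 0.30 and 0.67, with intervals from −1.09 to 1.69, −0.96 to 1.70 and −0.67 to 2.01, so at this spread a genotype effect more than 2-fold smaller than in the earlier experiment was inside each interval.

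**Figure D4:**
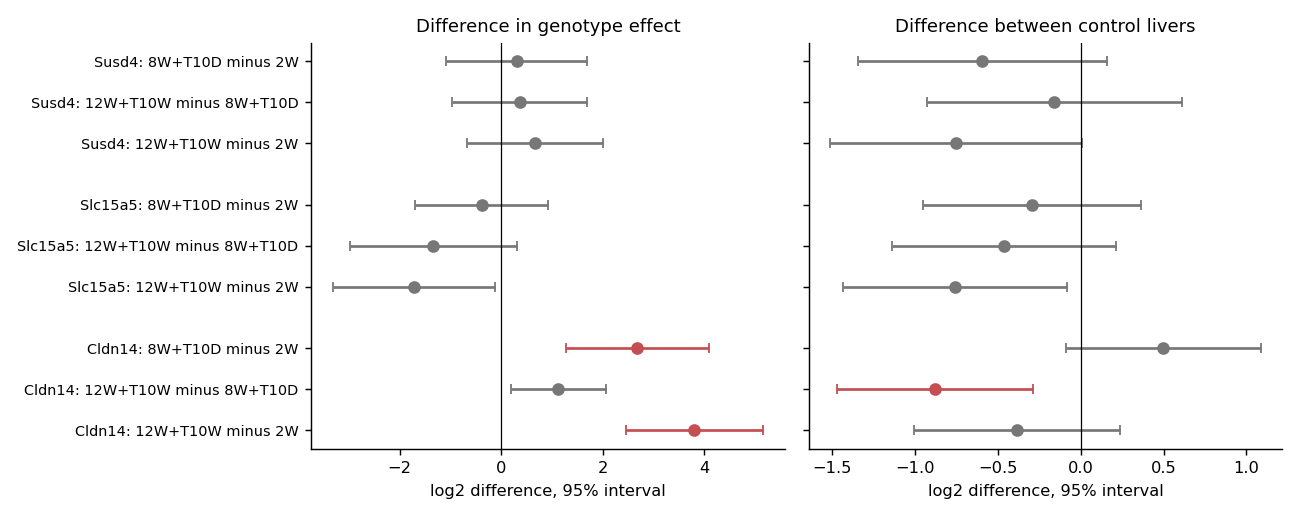
Difference between experiments in the genotype effect (left) and between control livers (right) for each gene (rows) on the log2 scale (horizontal axes), with 95% intervals from 1 edgeR fit, where red marks an adjusted p under 0.05. The *Cldn14* genotype effect differs from HFCFD2W by 2.68 and 3.81, and *Cldn14* in controls differs by −0.88 between HFCFD12W+T10W and HFCFD8W+T10D.

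In control livers, 43.6%, 11.4% and 39.1% of genes tested passed between HFCFD8W+T10D and HFCFD2W, HFCFD12W+T10W and HFCFD8W+T10D, and HFCFD12W+T10W and HFCFD2W. Of the 9 comparisons of the 3 genes, 1 passed. *Cldn14* was lower by a log2 difference of −0.88 ± 0.29 (SE) in HFCFD12W+T10W than in HFCFD8W+T10D controls (edgeR, adjusted p = 0.0455). That call was not firm, since it was lost in 11 of the 30 fits that left out 1 library (adjusted p up to 0.120), on plain totals (0.0719) and with the replicate block (0.0544). Libraries whose loss ended it were 4 HFCFD12W+T10W controls (replicates 1 to 4) and 4 HFCFD8W+T10D controls (replicates 1, 2, 3 and 5). The other 3 were HFCFD12W+T10W knockout replicates 2 and 4 and HFCFD2W control replicate 3.

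*Susd4* and *Slc15a5* had lower means in controls of the longer experiments, but the differences did not pass. *Susd4* in HFCFD12W+T10W against HFCFD2W controls differed by −0.75 (95% interval −1.51 to 0.01, edgeR adjusted p = 0.109), and by −1.01 without HFCFD2W control replicate 2 (adjusted p = 0.0199), the low mouse of that group. It also passed without HFCFD12W+T10W control replicate 4 (0.0480). In HFCFD8W+T10D against HFCFD2W the difference was −0.59 (adjusted p = 0.193), and −0.85 without that low mouse (0.0416). *Slc15a5* in HFCFD12W+T10W against HFCFD2W controls differed by −0.76 (−1.43 to −0.08, adjusted p = 0.0690), and passed without HFCFD12W+T10W control replicate 2 (0.0298), HFCFD12W+T10W knockout replicate 3 (0.0462) or HFCFD8W+T10D knockout replicate 2 (0.0416).

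Per length, in the TPM that the authors' RSEM run gives, *Slc15a5* had the highest mean of the 3 genes in controls of every experiment. In HFCFD2W controls the means were 8.21 ± 1.8 TPM for *Slc15a5*, 3.33 ± 1.60 for *Susd4* and 2.81 ± 0.99 for *Cldn14* (SD, n = 5), and the last 2 did not differ beyond their spread. *Cldn14* had the next highest mean in the other 2 experiments, with 3.90 ± 0.82 against 2.66 ± 0.74 TPM of *Susd4* in HFCFD8W+T10D and 3.42 ± 1.38 against 2.54 ± 1.45 TPM in HFCFD12W+T10W. All were genes of middling rank. *Slc15a5* ranked 4848th of the 17870 genes above 0 in HFCFD2W controls, and 10917th of 18216 in the knockouts.

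The mean transcript length that RSEM estimates per gene and library was a readout the choice of genes had not used. *Susd4* in control livers averaged 2781 to 2896 bases, close to its longest annotated transcript (2983 bases, 8 exons). *Slc15a5* averaged 792 to 989 bases, and *Cldn14* 969 to 1205 bases, both well below their longest annotated transcripts (2461 and 1457 bases). At 10 or more counts a mouse, only *Susd4* in HFCFD12W+T10W could be compared, with 2577 ± 292 bases in 4 knockouts and 2896 ± 53.3 in 5 controls (SD). The difference of −319 bases did not pass (exact two-sided permutation test, p = 0.0952), and without knockout replicate 3 it reached p = 0.0357 in the same exact test, the smallest that 3 against 5 mice allow.

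The nearest tested genes on both sides of each gene, up to 3 a side within 500 kb, were 16 in all. Their median log2 fold change was −0.02, 0.03 and −0.03 in the 3 experiments, where the medians of all genes tested were each 0.01. Single neighbours went both ways, from −1.45 to 0.50, −1.16 to 0.58 and −1.18 to 0.93. By adjusted p alone, 4 of 14, 2 of 16 and 4 of 16 tested there fell, and 3 rose, in HFCFD12W+T10W only. That rule passed 16.7%, 17.1% and 51.1% of all genes tested in either direction. By the rule with the fold limit, 1, 1 and 2 of the neighbours were called lower and none higher. The higher rule called 1.69%, 4.09% and 14.3% of genes tested.

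*Tlr5*, the receptor for bacterial flagellin, begins 58.2 kb to the right of *Susd4* and was called lower in all 3 experiments. Mean levels in controls and knockouts were 15.4 and 5.62 CPM in HFCFD2W, 5.27 and 2.32 CPM after 10 days of tamoxifen, and 9.65 and 4.09 CPM after 10 weeks of it. Log2 fold changes in this order were −1.45, −1.16 and −1.18 (edgeR, adjusted p = 0.00014, 0.0154 and 0.0056). *Mgst1*, a membrane-bound glutathione transferase, lies 60.4 kb to the right of *Slc15a5* and was far more abundant, at 3596 CPM in HFCFD2W controls against 1911 in knockouts. Its log2 fold changes were −0.91, −0.95 and −1.12 (adjusted p = 3.0e-05, 0.0064 and 1.1e-06), of which the last passed the fold limit.

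Around *Cldn14* no gene was called. *Chaf1b*, a histone chaperone subunit 12.9 kb away, was at 1.68 CPM in controls and 2.99 in knockouts in HFCFD12W+T10W, a log2 fold change of 0.86 (edgeR, adjusted p = 0.0024). *Pigp*, which acts in GPI anchor synthesis 350 kb away, fell by 0.83 on the log2 scale in HFCFD2W (adjusted p = 0.0044), and its values in the other 2 experiments were −0.61 and −0.22 (adjusted p = 0.0644 and 0.171).

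**Figure D5:**
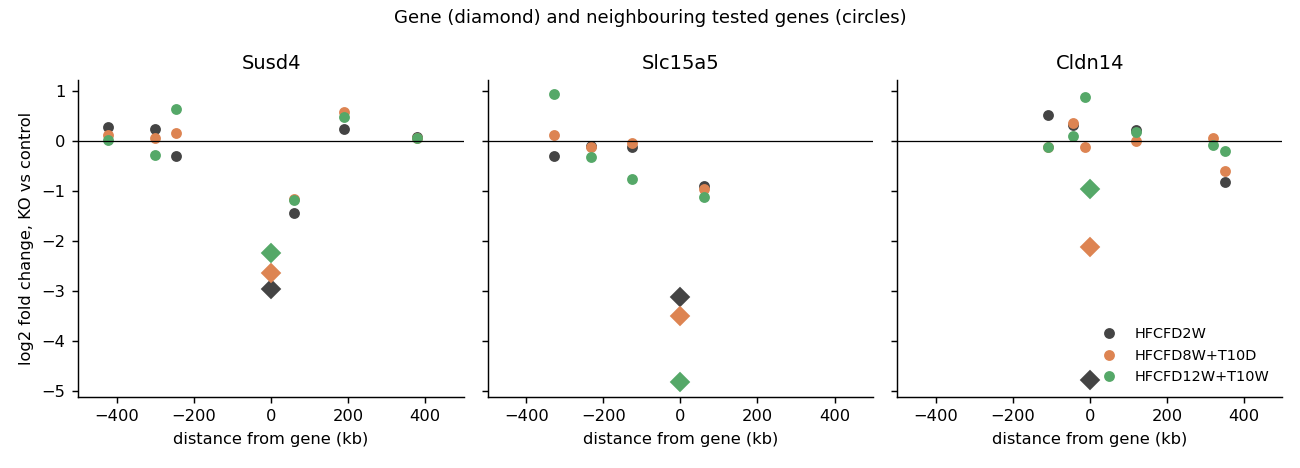
Log2 fold change of knockouts against controls (vertical axes) for each gene (diamonds) and its nearest tested neighbours (circles) by distance from the gene in kb (horizontal axes; negative is to the left), coloured by experiment. *Tlr5*, 58.2 kb to the right of *Susd4*, and *Mgst1*, 60.4 kb to the right of *Slc15a5*, are the nearest neighbours on those sides and lie below 0 in all 3 experiments.

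Of the related genes, few fell as these 3 did. Tests of these genes are by adjusted p alone, which 16.7%, 17.1% and 51.1% of genes tested passed in the 3 experiments in either direction. Of 5 other Susd genes, 3 could be tested. *Susd6* rose in HFCFD2W (0.56, adjusted p = 0.0020) and fell in HFCFD12W+T10W (−0.32, 0.0333), and *Susd2* rose there (0.85, 0.0024), whereas *Susd1* passed in none.

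Of 16 complement regulators, 11 could be tested. In HFCFD2W 1 fell and none rose, in HFCFD8W+T10D 2 fell and 1 rose, and in HFCFD12W+T10W 6 fell and 1 rose, with median log2 fold changes of −0.02, 0.16 and −0.35. *Cd59a*, which blocks the membrane attack complex, fell in all 3 experiments (−0.34, −0.84 and −0.85; edgeR, adjusted p = 0.0110, 0.00032 and 1.3e-06).

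All 15 components of the C3 and C5 convertase pathway were tested. The C1q chains *C1qa*, *C1qb* and *C1qc*, which macrophages make, rose in each experiment (log2 fold changes from 0.35 to 1.14). *Cfd*, complement factor D, which is best known as a product of fat cells, was at 9.41 CPM in HFCFD12W+T10W controls and 0.32 CPM in knockouts (log2 fold change −4.74). The median over the 15 genes was 0.19, 0.23 and −0.20. The summed level of 7 macrophage and Kupffer cell markers in knockouts was 206 to 324 CPM in HFCFD2W (175 to 249 CPM in controls), 789 to 1639 CPM in HFCFD8W+T10D (466 to 919 CPM) and 470 to 647 CPM in HFCFD12W+T10W (213 to 695 CPM), so the genotypes overlapped each time. Single markers did move: by adjusted p alone, 1, 3 and 3 of the 7 rose in the 3 experiments, and 2 fell in HFCFD12W+T10W. With the fold limit, 2 of the 7 macrophage and Kupffer cell markers were called higher and 2 lower in HFCFD12W+T10W, so the sum there mixed opposite moves. The part of these cells in the C1q result was not tested.

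Of the other SLC15 transporters, *Slc15a1* had too few counts in each experiment. *Slc15a3*, a lysosomal transporter of immune cells, rose to 19.4 from 9.16 CPM in HFCFD8W+T10D and to 17.1 from 6.11 in HFCFD12W+T10W (log2 fold changes 1.11 and 1.52). *Slc15a4* fell in both (−0.39 and −0.57). None of them followed *Slc15a5* in HFCFD2W, where no other member passed.

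Of 22 other claudins, 5, 5 and 8 could be tested. *Cldn2*, a pore-forming claudin, fell in HFCFD2W (74.9 to 49.2 CPM, log2 fold change −0.60), and *Cldn12* fell in HFCFD12W+T10W (−0.44), while the abundant *Cldn1* passed in no experiment (log2 fold changes −0.31, 0.01 and −0.03). *Cldn3* rose in HFCFD8W+T10D (19.6 to 28.1 CPM, log2 fold change 0.54, edgeR adjusted p = 0.0491) and in HFCFD12W+T10W (16.8 to 22.1 CPM, 0.44, adjusted p = 0.0159). In the latter, *Cldn4*, *Cldn7* and *Cldn8* rose from 0.04, 0.24 and 0.25 CPM to 3.11, 4.08 and 3.07 CPM as well, beside the 6 of 6 cholangiocyte markers that were called higher there. The part of those cells in the claudin values, that of *Cldn14* in the same knockouts included, was not tested. Of 17 tight junction scaffold and membrane genes, 10 rose and 2 fell in HFCFD12W+T10W, with a median of 0.60, and *F11r* rose in all 3 experiments (0.37, 0.65 and 0.60).

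The genes whose levels ran most like each of the 3 over the 30 libraries were found by Pearson's r of log2 CPM. Since the libraries fall into knockout and control livers, a high r can come from a shared genotype difference alone, and it is a description with no test. For *Susd4* they were *Tiam2* (r = 0.90), *Nxpe2* (0.86), *Slc15a5* (0.85), *Ank* (0.84) and *Rfx4* (0.83). For *Slc15a5* they were *Pecr*, a peroxisomal enoyl-CoA reductase (0.96), *Mgst1* (0.95), *Chpt1* (0.95), *Nxpe2* (0.93) and *Slco1b2*, an uptake transporter of organic anions (0.93). For *Cldn14* the closest of 12963 genes was *Cebpa* itself (0.90), followed by *Slc17a1* (0.87), *Sult1d1* (0.85), *Gstt3* (0.84) and *Adtrp* (0.82). *Cebpa* was at rank 9 for *Susd4* (0.81) and at rank 243 for *Slc15a5* (0.78).

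With each group's mean removed, so that only mouse-to-mouse variation remained, the order changed. *Slc15a5* ran most like *Slc10a1*, the bile acid uptake transporter of hepatocytes (r = 0.84), *Urah* (0.84), *Mup3* (0.83), *Serpina3k* (0.82) and *Nudt7* (0.82), genes of far higher counts. *Susd4* ran most like *Gm42427* (0.75), *Gstp-ps* (0.73), *AC158975.2* (0.73), *Gstp1* (0.73) and *Mup19* (0.72), of which *Gstp-ps* and *Gstp1* share near-identical sequence and may share reads. For *Cldn14* no r exceeded 0.65 (*Tbc1d25*, then *Nudt6*, *Zfp954*, *Gm18537* and *Sdsl*), which at its counts says little. Within groups, *Cebpa* had r = 0.09 with *Susd4*, −0.14 with *Slc15a5* and −0.16 with *Cldn14*.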

How the data were processed

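The authors sequenced liver poly(A) RNA as stranded libraries and deposited RSEM expected counts per gene, per library and as 1 table of 30 columns, without normalization, and these 2 forms differed by 0. The deposited TPM and mean transcript length of the same per-library files were also used. The deposited tables of TMM-scaled counts and FPKM were not used. The submitters' processing notes name Trimmomatic 0.36, STAR 2.5.1, Picard 1.84, RSEM 1.2.22, DESeq2 and the build mm10, without their roles. RSEM splits reads that fit several genes.

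The expected counts, taken to the nearest whole number, went into edgeR 4.0.16 (R 4.3.3). After filterByExpr and TMM scaling, each experiment had its own quasi-likelihood fit of genotype, with p adjusted over all genes tested (Benjamini-Hochberg). Interactions and control livers were tested in 1 fit of all libraries. A call needed an adjusted p under 0.05 and, between genotypes, a fold change over 2. CPM use the TMM totals of all 30 libraries. The script was tested on simulated data. Alternatives were no filter, upper quartile scaling, DESeq2 1.42.0, a replicate block, the joint fit, leaving out each library and, chosen after seeing the data, plain library totals.

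The 3 genes, the gene lists, the motifs and the tests were chosen with earlier results of these data known. Named genes are the 3 members, *Cebpa*, the testable genes of the related lists, the neighbours, the 5 genes with the highest r by each measure, and the genes adjacent in rank among those called lower in all experiments. *Slc15a1*, which had too few counts, was named after its values were seen. Same-numbered mice did not pair (correlation of deviations −0.23 to 0.16 over 2000 genes). The mice were labelled biological replicates. No pair of libraries of a group agreed within sampling noise (mean chi-square per gene at least 7.45).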

Additional observations from a re-analysis of the deposited data

Results flagged for a closer look

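In HFCFD12W+T10W, 1 knockout mouse (replicate 3) had 0.338 CPM of *Slc15a5*, 4 counts, while the others had 0 or 1 count, and its gap to the nearest other was over Dixon's limit of 0.71 of the group's range. In HFCFD12W+T10W, 1 control mouse (replicate 5) had 2.63 CPM of *Cldn14* against 1.49 to 1.81 CPM in the other 4, over the same limit. Of 24 groups checked (the 3 genes and *Cebpa* in 6 groups), these 2 were over it. Chance alone gives about 1 in 20 for normally distributed values, a rate that need not hold for counts this close to 0.

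The genotype effect on *Cldn14* differed by 3.81 on the log2 scale between HFCFD12W+T10W and HFCFD2W and by 2.68 between HFCFD8W+T10D and HFCFD2W (edgeR interaction, adjusted p = 0.00010 and 0.0107). Both differences use the knockout and control values that chose the gene, and the HFCFD2W knockouts held only 3 counts of it in all. With the replicate block the difference between HFCFD8W+T10D and HFCFD2W did not pass (edgeR interaction, adjusted p = 0.0556). Cre line, diet time, tamoxifen and experiment cannot be told apart in either.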

How the results depend on the processing

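Of 200 values recomputed under 8 alternatives, leaving aside fits without 1 library, 190 kept their direction, their side of the threshold and their size. On plain library totals, HFCFD8W+T10D had 173 genes called lower and 822 higher rather than 241 and 490, and HFCFD12W+T10W had 220 and 2578 rather than 433 and 1777. Without the low-count filter 2672 rather than 1777 genes were called higher in HFCFD12W+T10W. The *Cldn14* difference between HFCFD12W+T10W and HFCFD8W+T10D controls did not pass without the filter (−0.88, adjusted p = 0.0720), on plain totals (−0.84) or with the replicate block (−0.89). With the replicate block, the *Cldn14* genotype effect in HFCFD8W+T10D minus HFCFD2W was 2.97 (adjusted p = 0.0556) and that of *Susd4* turned to −0.042, from 0.30. The numbers do not pair the mice, and the block moved no count of calls by over 1.5 times. With a prior count of 0.5, 8 of the 15 genes most like the 3 over all libraries were still among them. The causes were not tested.

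Without 1 library at a time, the log2 fold change ran from −5.67 to −4.48 for *Cldn14* in HFCFD2W and from −6.36 to −4.51 for *Slc15a5* in HFCFD12W+T10W, and the genes called higher in HFCFD8W+T10D from 308 (without knockout replicate 2) to 706. The genotype effect of *Susd4* in HFCFD8W+T10D minus HFCFD2W ran from −0.060 (without HFCFD8W+T10D knockout replicate 3) to 0.61, and that of *Slc15a5* in HFCFD12W+T10W minus HFCFD2W from −3.20 to −1.39. In controls, *Susd4* ran from −0.85 to −0.43 in HFCFD8W+T10D minus HFCFD2W, from −0.42 to 0.076 (without HFCFD12W+T10W control replicate 5) in HFCFD12W+T10W minus HFCFD8W+T10D and from −1.01 to −0.50 in HFCFD12W+T10W minus HFCFD2W. *Slc15a5* in the last ran from −0.98 to −0.56, and *Cldn14* in HFCFD12W+T10W minus HFCFD8W+T10D controls from −1.04 to −0.77. The *Susd4* length difference ran from −454 to −233 bases. At 0 to 6 counts of *Slc15a5* and 0 to 17 of *Cldn14* a knockout mouse, the levels left are set only within their counting intervals.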
